A study of Rattus norvegicus with 9 samples.

Results

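The nuclear-encoded subunits of the mitochondrial respiratory chain and of ATP synthase were followed in cultured rat ureteric buds, the epithelial tubes that branch to form the collecting ducts of the kidney. Members were taken by gene symbol: every probe set of the array platform whose 1 symbol began with Nduf and a letter a, b, c, s or v, with Uqcr, with Cox4 to Cox8 or with Atp5, or was Sdha, Sdhb, Sdhc, Sdhd, Cyc1 or Cycs. The rule used names only and no measured value. It found 90 probe sets of 85 genes, among 15866 probe sets that were not controls and 10411 genes named by 1 symbol. Of these, 81 probe sets of 78 genes carried the symbol of a subunit: 37 probe sets for complex I, 5 for complex II, 8 for complex III, 15 for complex IV and 16 for complex V. The other 9 probe sets matched the pattern without naming a subunit: the assembly factors Ndufaf3, Ndufaf4, Ndufaf5, Ndufaf7 and Ndufaf8, the ATP synthase inhibitor Atp5if1 with 3 probe sets, and the pseudogene Cox6c-ps1. A further 6 probe sets carried several symbols of which the first matched, and they were counted apart and not named. Cycs was found only on probe sets with several symbols and therefore had no member.

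The series compared 3 media, with 3 arrays each, and every sample pooled 3 buds taken from Sprague-Dawley rats at embryonic day 13. All buds were grown for 4 days in a gel made of 50% each of type 1 collagen and Matrigel that was reduced in growth factors, and all media held the growth factors FGF1 at 250 ng/ml and GDNF at 125 ng/ml. The HRG medium added human recombinant heregulin at 500 ng/ml, a ligand of ErbB receptors that the label of replicate 1 names as the alpha form. The PTN medium added pleiotrophin that had been purified from BSN-CM, at approximately 3 µg/ml. Pleiotrophin is a secreted factor that binds heparin. The BSN medium held BSN-CM itself, which is medium conditioned by a cell line of metanephric mesenchyme. The series title calls growth in BSN and PTN branching and growth in HRG non-branching, whereas the descriptions of the PTN samples call it non-branching, so the groups are named here by their medium. No group had FGF1 and GDNF alone, so each difference is between 2 added factors or mixtures and not against a basal medium. The samples hold whole buds, so fewer cells of a type and less RNA per cell cannot be told apart.

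As background, the chain passes electrons from NADH, through complex I, and from succinate, through complex II, by way of ubiquinone to complex III, then by cytochrome c to complex IV and oxygen. Complexes I, III and IV pump protons out of the matrix, and complex V, the ATP synthase, lets them flow back to make ATP. Most subunits are encoded in the nucleus and a few of the core ones in the mitochondrial genome, so the complexes need both sets of transcripts. Kidney tubules are among the tissues richest in mitochondria in the adult.

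The deposited signals had been scaled to nearly the same trimmed mean, 2500.48 to 2500.58 on all arrays. Arrays of a medium correlated with each other at 0.946 to 0.979 on the log2 scale, and arrays of different media at 0.882 to 0.937. The ratio of 3' to 5' signal of the actin control, a measure of how far the amplified RNA reached, was 25.2 ± 5.86 in HRG, 16.6 ± 1.40 in PTN and 33.2 ± 4.91 in BSN (SD, n = 3). In an exact permutation test, two-sided, that ratio differed with p = 0.1 between HRG and PTN and between PTN and BSN, the smallest p that 3 against 3 arrays allow, and with p = 0.2 between HRG and BSN. The GAPDH ratio was 2.92 ± 0.802 in HRG, 5.14 ± 1.98 in PTN and 4.57 ± 1.11 in BSN, and by the same exact test it differed with p = 0.1 between HRG and BSN, where all HRG arrays were below all BSN arrays, with p = 0.3 between HRG and PTN and p = 0.8 between PTN and BSN. Of the ureteric bud markers, 11 of 14 probe sets were above the filter, and their summed signal was 158814 to 174397 in HRG, 137260 to 162596 in PTN and 165281 to 176770 in BSN. None of the 4 probe sets for metanephric mesenchyme was above it, with summed signals of 982 to 1388 in HRG, 925 to 1013 in PTN and 1017 to 1221 in BSN. The ureteric bud markers went both ways beneath their sum. By limma's adjusted p, described below, 1 of the 11 was higher and 3 lower in HRG than in BSN. Those shares were 9.09% and 27.3%, against 6.92% and 8.86% of all kept probe sets. Against PTN 4 were higher and 3 lower in HRG, or 36.4% and 27.3%, against 14.1% and 11.7%. Between HRG and BSN, Ret had log2 changes of -3.86 and -2.78 on different probe sets, and Krt19 had 1.88. The part of these differences in the results below was not tested.

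Signals were analysed as log2 of the signal plus 16, and a probe set was kept if 3 or more of the 9 arrays had it above their own 40th percentile. Of the 90 members, 79 were kept, 75 of them above that level on all 9 arrays. The kept members comprised 33 probe sets of complex I, 5 of complex II, 8 of complex III, 10 of complex IV, 15 of complex V and 8 that are not subunits. A member is called higher or lower where limma's p was under 0.05 after Benjamini-Hochberg adjustment across the 10106 kept probe sets. Fold changes are ratios on the log2(signal + 16) scale, and no fold is given where the mean of a group fell short of its filter level, the average 40th percentile of the 3 arrays.

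Compared with BSN, buds in HRG had higher signals for a scattered set of respiratory subunits, with at least 1 in every complex. Of the 79 kept members, 10 were higher in HRG, none was lower by limma's adjusted p and 69 did not pass. At an unadjusted p under 0.05, 23 were higher and 1 was lower. The higher share was 12.7% of the members, where 6.92% of all kept probe sets were called higher, 8.86% lower and 15.8% either way. The 10 were Ndufv1, Ndufv3, Ndufb5 and Ndufc1 of complex I, Sdha and Sdhd of complex II, Uqcr11 and Uqcrc2 of complex III, Cox6b1 of complex IV and Atp5po of complex V. The log2 change had a median of 0.20 over the members and -0.04 over all kept probe sets. Of the 79 members, 65 lay above 0, or 82.3%, against 45.3% of all kept probe sets. The arrays of the media did not overlap, with HRG above BSN, for 27 members, or 34.2%, against 16.1% of all kept probe sets. For 1 member, or 1.27%, all HRG arrays were below all BSN arrays, against 20.9%. Among the brightest 25% of kept probe sets, in which 50 members lay, 10.9% were called higher, and 7 of the 50 members were. Differences between complexes were not tested. With each array centred on its median in place of the deposited scale, 16 members were called higher. The 6 gained were all of complex I, Ndufa1, Ndufa8, Ndufa9, Ndufb3, Ndufb7 and Ndufs3, with adjusted p of 0.0207 to 0.0423. Over all kept probe sets the split was then 855 higher and 623 lower, against 699 and 895 as deposited. The calls of Sdha and Uqcr11 passed under all 18 alternative settings and omissions tried at the same threshold. With 1 array left out, the number of members called higher was 3 without HRG replicate 3, 5 without HRG replicate 1, 6 without HRG replicate 2 and 4 without BSN replicate 2.

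On the deposited scale, buds in HRG had higher signals than buds in PTN for respiratory subunits in all 5 complexes. A lower signal was found for 1 subunit of the ATP synthase, and after median centring none of complex II was called. The test called 19 of the 79 kept members higher in HRG and 1 lower, and 59 did not pass. The shares were 24.1% higher and 1.27% lower, where 14.1% of all kept probe sets were called higher, 11.7% lower and 25.8% either way. The median log2 change was 0.25 over the members and 0.08 over all kept probe sets. Of the 79 members, 66 lay above 0, or 83.5%, against 58.1% of all kept probe sets. HRG arrays were all above PTN arrays for 32 members, or 40.5%, against 22.9% of all kept probe sets, and all below them for 3 members, or 3.80%, against 17.4%. Among the brightest 25%, 14.1% of all probe sets and 14 of the 50 members were called higher. Both comparisons use the same HRG arrays, so the calls that recur between them are not separate evidence.

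The number of calls against PTN depended on how the arrays were scaled. After median centring, 8 of the 79 kept members were called higher and 1 lower. Of all kept probe sets, 9.33% were then higher and 14.4% lower, so the members' share higher was close to that of all kept probe sets. The median of all kept probe sets was -0.03 in place of 0.08, while that of the members was 0.14. Over all kept probe sets the split was 1423 higher and 1180 lower as deposited, and 943 higher and 1452 lower after median centring. Relative to all kept probe sets, the members' median was 0.17 higher on either scale. This centring changed every log2 change by the same amount, 0.10 between HRG and BSN, -0.11 between HRG and PTN, and 0.21 between PTN and BSN, so a median that is smaller than this amount and of the opposite sign changes sign under it. The 11 calls lost were those of Ndufa3, Ndufs4, Ndufv3, Sdha, Sdhd, Uqcrc2, Uqcrh, Cox7b, Cox8a, Atp5mc3 and Atp5mpl, with adjusted p of 0.0567 to 0.201. The calls of Ndufa1, Ndufv1, Cyc1, Uqcr11, Cox6b1, Atp5f1e and Atp5po passed under all 18 alternatives. With 1 array left out, 8 members were higher without HRG replicate 1, 12 without HRG replicate 3 and 10 without PTN replicate 2.

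Compared with BSN, buds in PTN showed calls in both directions, in complexes I, II, III and V. Of the 79 kept members, 5 were higher in PTN, 6 were lower and 68 did not pass. Those shares, 6.33% higher and 7.59% lower, were below those of all kept probe sets, 9.15% higher and 13.4% lower, or 22.5% either way. The 5 were Ndufa8, Ndufc1, Sdhb, Atp5f1b and Atp5pf, and the 6 were Ndufa3, Ndufb4, Ndufs4, Cyc1, Atp5f1e and 1 of the probe sets of Atp5me. The median log2 change was -0.08 over the members and -0.11 over all kept probe sets as deposited, and 0.13 and 0.10 after median centring, so its sign rests on the scaling. After median centring 11 members were called higher and 1 lower, and over all kept probe sets 1598 higher and 645 lower, against 925 and 1351 as deposited. Of the 6 lower, Ndufa3, Ndufb4, Ndufs4, Cyc1 and Atp5me no longer passed on that scale, with adjusted p of 0.0694 to 0.199, and Ndufb7, Ndufb9, Cox6c, Atp5f1a, Atp5mk and Atp5pd were called higher, with 0.0118 to 0.0357. PTN arrays were all above BSN arrays for 9 members, or 11.4%, against 14.7% of all kept probe sets, and all below them for 12, or 15.2%, against 23.8%. Among the brightest 25%, 19.1% of all probe sets were called higher and 10.2% lower. Of the 50 members there, 3 were higher and 3 lower, or 6% each. The median log2 change there was 0.09 over all probe sets and 0.00 over the members, as deposited. Ndufa8, Atp5f1b, Atp5f1e and Atp5pf passed under all 18 alternatives. With 1 array left out, 3 members were higher without PTN replicate 3. The number lower was 2 without BSN replicate 1, 3 without BSN replicate 3, 10 without PTN replicate 1 and 3 without PTN replicate 3.

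**Figure D1:**
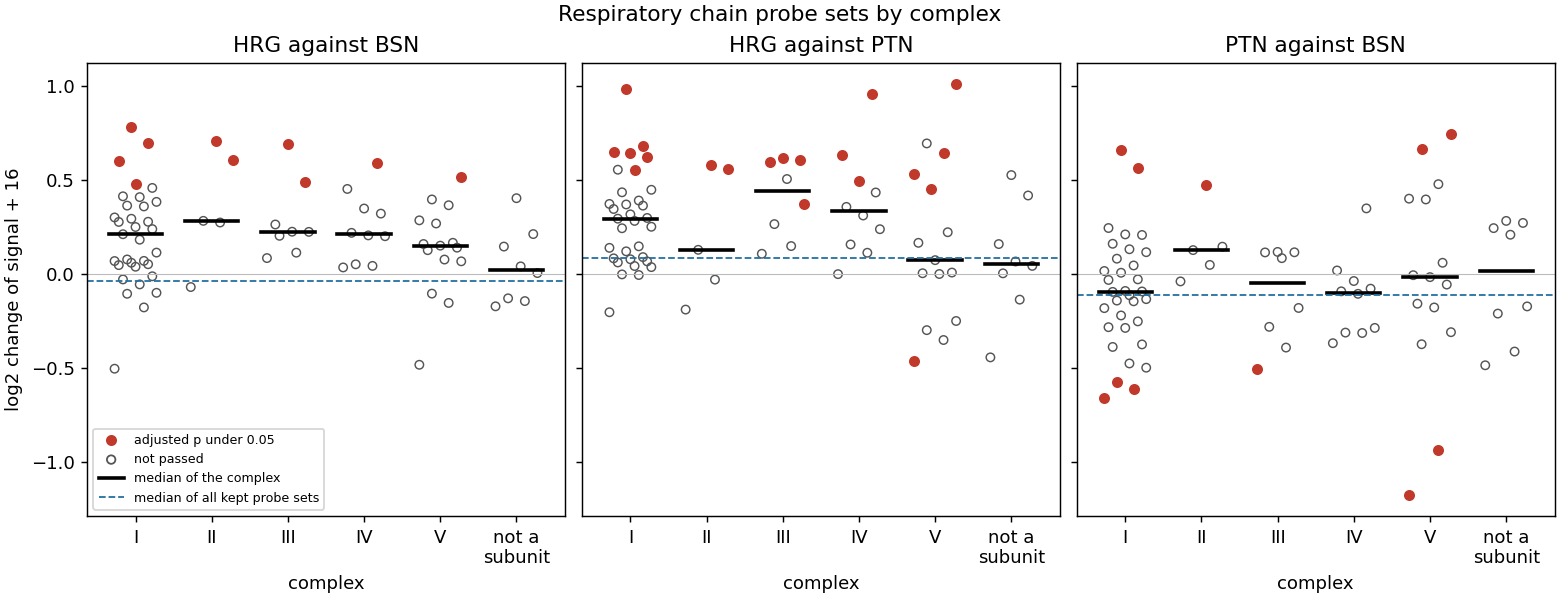
Log2 change of every kept member, 1 point for each probe set, by complex on the horizontal axis and with 1 panel for each comparison, filled where limma's adjusted p was under 0.05. In both comparisons of HRG most points lie above 0, with 10 and 19 called higher, while the points for PTN against BSN lie on both sides of 0 as deposited, with a median that is above 0 after median centring.

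Taken by group mean, HRG was the highest of the 3 media for 52 of the 79 kept members, PTN for 12 and BSN for 15. PTN was the lowest for 43, BSN for 31 and HRG for 5. These counts were not computed over all kept probe sets. The mean log2 signal over the 79 was 12.81, 12.67 and 12.77 in HRG, 12.58, 12.41 and 12.47 in PTN, and 12.60, 12.42 and 12.64 in BSN, so the HRG arrays were the highest and the PTN and BSN arrays overlapped. The same mean over all 10106 kept probe sets was 11.38, 11.33 and 11.33 in HRG, 11.34, 11.28 and 11.26 in PTN, and 11.40, 11.39 and 11.42 in BSN, where the BSN arrays were the highest. In all, 26 probe sets of 26 genes were called in at least 1 comparison and 53 in none. The matching split of all kept probe sets was not computed. Counting either direction, 12.7% of the members were called between HRG and BSN, where 15.8% of all kept probe sets were. Members and all kept probe sets had 25.3% and 25.8% called between HRG and PTN. Between PTN and BSN they had 13.9% and 22.5%.

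Complex I, the NADH dehydrogenase, had 33 kept probe sets. Of these, 4 were higher in HRG than in BSN, 6 were higher in HRG than in PTN, and 2 were higher and 3 lower in PTN than in BSN. The shares higher in HRG were 12.1% against BSN, where 6.92% of all kept probe sets were, and 18.2% against PTN, where 14.1% were. After median centring 10 of the 33 were higher in HRG than in BSN, where 8.46% of all kept probe sets were. Against PTN 3 of the 33 were then higher, a share close to the 9.33% of all kept probe sets. In PTN relative to BSN the shares were 6.06% higher and 9.09% lower, below the 9.15% and 13.4% of all kept probe sets. The median log2 change of the 33 was 0.21 in HRG relative to BSN and 0.29 relative to PTN. In PTN relative to BSN it was -0.10 as deposited and 0.12 after median centring. Ndufv1 encodes the flavoprotein at which NADH is oxidised. It had signals of 4864, 4831 and 5323 in HRG, 2059.8, 2822 and 2737 in PTN, and 2568, 3044 and 3712 in BSN. All HRG arrays lay above all others. HRG was 1.98-fold higher (log2 change 0.99, SE 0.17, adjusted p 0.000891) than PTN and 1.62-fold higher (log2 change 0.70, SE 0.17, adjusted p 0.0118) than BSN. Ndufv3, an accessory subunit of the same module, had 4128, 3838 and 5051 in HRG, 3950.1, 2186 and 2387 in PTN, and 3176, 2041 and 2413 in BSN. The HRG arrays lay above the BSN arrays but overlapped with PTN replicate 1. HRG was 1.72-fold higher (log2 change 0.78, SE 0.22, adjusted p 0.032) than BSN and 1.57-fold higher (log2 change 0.65, SE 0.22, adjusted p 0.0498) than PTN. A second probe set of Ndufv3 was below the filter on all 9 arrays, with 92.7 to 300.9.

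Among the accessory subunits of the membrane arm, Ndufa1 had 38614, 30629.8 and 34617 in HRG, 24131, 19546 and 22751 in PTN, and 28212, 22448 and 30564 in BSN. The HRG arrays lay above those of PTN, and BSN replicate 3 came close below HRG replicate 2. HRG was 1.56-fold higher (log2 change 0.64, SE 0.14, adjusted p 0.00539) than PTN, and the log2 change against BSN was 0.36 (adjusted p 0.117). Ndufb5, the brightest kept probe set of the complex, had 43771, 38109 and 40954 in HRG, 34825, 32136 and 31512 in PTN, and 31639, 23729 and 33597 in BSN, with the HRG arrays above the others. HRG was 1.39-fold higher (log2 change 0.48, SE 0.13, adjusted p 0.0284) than BSN, and 0.32 on the log2 scale against PTN did not pass (adjusted p 0.102). Ndufc1 had 4713, 4525 and 5969 in HRG, 4242, 5009 and 5548 in PTN, and 3806, 2885 and 3314 in BSN, so that BSN was the low medium. It was 1.52-fold higher (log2 change 0.60, SE 0.16, adjusted p 0.0227) in HRG than in BSN and 1.48-fold higher (log2 change 0.56, SE 0.16, adjusted p 0.025) in PTN than in BSN.

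Ndufs4, Ndufb4 and Ndufa3 of complex I were called lower in PTN than in both other media on the deposited scale. After median centring none of the 3 passed for PTN against BSN (adjusted p 0.0694, 0.106 and 0.199), and of the calls for HRG against PTN those of Ndufs4 and Ndufa3 were lost (adjusted p 0.0687 and 0.0728). Ndufs4, an accessory subunit whose loss causes Leigh syndrome in humans, had 3243, 2414 and 2447 in HRG, 1731, 1701 and 2037 in PTN, and 3052, 2380.1 and 3288 in BSN. The PTN arrays lay below all others. HRG was 1.47-fold higher (log2 change 0.55, SE 0.17, adjusted p 0.0274) than PTN, and PTN was 1.58-fold lower (log2 change -0.66, SE 0.17, adjusted p 0.0136) than BSN. Ndufb4 had 7653, 5569 and 6055 in HRG, 5441, 3542 and 3212 in PTN, and 6464, 5692 and 6074 in BSN, with the PTN arrays again the lowest. HRG was 1.61-fold higher (log2 change 0.68, SE 0.19, adjusted p 0.0191) than PTN, and PTN was 1.53-fold lower (log2 change -0.62, SE 0.19, adjusted p 0.0357) than BSN. Ndufa3 had 3104, 2323 and 2685 in HRG, 1632, 1494 and 2144 in PTN, and 2868, 2015 and 3034 in BSN, where PTN lay below HRG but overlapped with BSN. HRG was 1.54-fold higher (log2 change 0.63, SE 0.19, adjusted p 0.0292) than PTN, and PTN was 1.49-fold lower (log2 change -0.58, SE 0.19, adjusted p 0.0458) than BSN.

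Ndufa8, an accessory subunit on the intermembrane-space side, went the other way. It had 4324, 4691 and 4258 in HRG, 6109, 4090.0 and 5289 in PTN, and 2927, 3674 and 3081 in BSN, and the PTN arrays lay above those of BSN. PTN was 1.58-fold higher (log2 change 0.66, SE 0.16, adjusted p 0.0109) than BSN, while the log2 change of HRG was 0.46 against BSN (adjusted p 0.0737). Ndufs1, which holds iron-sulphur clusters of the electron path, averaged 5892 ± 514 in HRG, 4552 ± 511 in PTN and 5028 ± 903 in BSN (SD, n = 3) and was called in no comparison. Ndufa4, placed with complex I by its symbol and since assigned to complex IV, averaged 4930.2 ± 609 in HRG, 4544 ± 665 in PTN and 5261 ± 182 in BSN and was called in none. Its relative Ndufa4l2 was below the filter on all 9 arrays, with 58.5 to 345.9. Ndufa5 and Ndufb8 were also below the filter, at 265.9 to 741.3 and 61.5 to 382.4.

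Complex II, succinate dehydrogenase, is encoded by 4 genes that are all nuclear, and it also works in the tricarboxylic acid cycle. Of its 5 probe sets, 2 were higher in HRG than in BSN, 2 were higher in HRG than in PTN, and 1 was higher in PTN than in BSN. These shares were 40%, 40% and 20%, against 6.92%, 14.1% and 9.15% of all kept probe sets. They rest on only 5 probe sets, 2 of them for Sdhd. After median centring neither call for HRG against PTN passed. Sdha, the flavoprotein that oxidises succinate, had 17727, 17192 and 18751 in HRG, 11394, 12106 and 12324 in PTN, and 8739.5, 12939 and 11529 in BSN. The HRG arrays lay well above the others, which overlapped. HRG was 1.64-fold higher (log2 change 0.71, SE 0.14, adjusted p 0.00465) than BSN and 1.5-fold higher (log2 change 0.58, SE 0.14, adjusted p 0.00991, or 0.0578 after median centring) than PTN. The iron-sulphur subunit Sdhb had 5301, 5451 and 5972 in HRG, 6438, 6162 and 6459 in PTN, and 4791, 4081 and 4887 in BSN. PTN lay above both other media. It was 1.39-fold higher (log2 change 0.47, SE 0.13, adjusted p 0.0177) in PTN than in BSN, and the log2 change of HRG was 0.28 against BSN (adjusted p 0.161) and -0.19 against PTN (adjusted p 0.298).

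Of the membrane anchors, Sdhd differed between its 2 probe sets. The first read 7129, 6406 and 7790.4 in HRG, 4339.6, 4651 and 5465 in PTN, and 5248, 3321 and 5719.9 in BSN, with the HRG arrays above the others. On it HRG was 1.53-fold higher (log2 change 0.61, SE 0.19, adjusted p 0.047) than BSN and 1.48-fold higher (log2 change 0.56, SE 0.19, adjusted p 0.0465) than PTN. The other probe set averaged 13036 ± 2699 in HRG, 11794 ± 1239.5 in PTN and 10631 ± 597 in BSN. Its log2 change was 0.27 against BSN (adjusted p 0.28) and 0.13 against PTN (adjusted p 0.59), so the calls of Sdhd rest on 1 of 2 probe sets. Sdhc averaged 4508 ± 330.0 in HRG, 4608 ± 421 in PTN and 4736 ± 429.6 in BSN and was called in no comparison. The median log2 change over the 5 probe sets was 0.28 for HRG against BSN and 0.13 for HRG against PTN, or 0.02 after median centring.

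Complex III, the cytochrome bc1 complex, had 8 kept probe sets of 8 genes. Against BSN, 2 were higher in HRG, or 25%, where 6.92% of all kept probe sets were. Against PTN 4 were, or 50%, where 14.1% were, and 2 after median centring. In PTN relative to BSN 1 was lower, or 12.5%, where 13.4% of all kept probe sets were. The median log2 change there was -0.05, which was 0.16 after median centring. All 8 had log2 changes above 0 in both comparisons of HRG, with medians of 0.22 and 0.44. Uqcrc2, a core protein on the matrix side, had 28148, 28851 and 24344 in HRG, 21620.3, 21004 and 19921 in PTN, and 19102, 21809 and 17069 in BSN. The HRG arrays lay above all others, and PTN and BSN overlapped. HRG was 1.41-fold higher (log2 change 0.49, SE 0.12, adjusted p 0.0166) than BSN and 1.3-fold higher (log2 change 0.38, SE 0.12, adjusted p 0.0415) than PTN. Uqcr11, a small accessory subunit, had 15984, 11905 and 14771 in HRG, 9823, 8241 and 9781 in PTN, and 8340.2, 7832 and 10167 in BSN, with the same order. HRG was 1.62-fold higher (log2 change 0.69, SE 0.15, adjusted p 0.00728) than BSN and 1.52-fold higher (log2 change 0.61, SE 0.15, adjusted p 0.0103) than PTN.

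Cyc1, the cytochrome c1 haem protein that hands electrons to cytochrome c, was lowest in PTN. Its signals were 10555, 9184 and 9375 in HRG, 6806, 6309.8 and 5837 in PTN, and 8533, 10308 and 8153 in BSN. The PTN arrays lay below all others, while HRG and BSN overlapped. HRG was 1.53-fold higher (log2 change 0.62, SE 0.13, adjusted p 0.00467) than PTN, and PTN was 1.42-fold lower (log2 change -0.50, SE 0.13, adjusted p 0.0175) than BSN. After median centring the call against BSN was lost (adjusted p 0.164) and the call of HRG against PTN passed. Uqcrh, the hinge protein beside cytochrome c1 and the brightest probe set of the complex, had 28026, 23738 and 27589.5 in HRG, 11715, 20695 and 21914 in PTN, and 23940.4, 20281 and 24753 in BSN, where PTN replicate 1 was far below the other PTN arrays. HRG was 1.51-fold higher (log2 change 0.60, SE 0.20, adjusted p 0.0452) than PTN, and that call was among those lost without PTN replicate 1. The Rieske protein Uqcrfs1 averaged 8905 ± 1194 in HRG, 8030.1 ± 1080.1 in PTN and 7374 ± 243 in BSN, and the core protein Uqcrc1 averaged 14854 ± 2778 in HRG, 13910.2 ± 3424 in PTN and 12669 ± 1954 in BSN. Neither was called in any comparison.

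Complex IV, cytochrome c oxidase, had 10 kept probe sets of 15. Of these, 1 was higher in HRG than in BSN, 3 were higher in HRG than in PTN, and none was called for PTN against BSN by limma's adjusted p, with 1 higher and 1 lower at an unadjusted p under 0.05 and 1, Cox6c, higher after median centring (adjusted p 0.0271). Against the 6.92% and 14.1% of all kept probe sets higher in HRG than in BSN and in PTN, the shares were 10% and 30%, the second 10% after median centring. The median log2 change was 0.21 in HRG relative to BSN and 0.33 relative to PTN, and -0.10 in PTN relative to BSN as deposited, which was 0.11 after median centring. Cox6b1, a subunit facing the intermembrane space, had 19033, 16362 and 18194 in HRG, 8026, 8741 and 10911 in PTN, and 12234, 9861 and 13675 in BSN. The HRG arrays lay above all others. HRG was 1.95-fold higher (log2 change 0.96, SE 0.15, adjusted p 0.000639) than PTN and 1.51-fold higher (log2 change 0.59, SE 0.15, adjusted p 0.0198) than BSN. Cox8a, a small membrane subunit, had 25670.1, 21240.2 and 30144 in HRG, 20397, 14193 and 15168 in PTN, and 20475, 15273 and 26898 in BSN, with HRG above PTN and overlapping with BSN. It was 1.55-fold higher (log2 change 0.63, SE 0.21, adjusted p 0.0383) in HRG than in PTN. Cox7b, named after its values were seen to complete the count, had 2710.1, 2391 and 2247 in HRG, 1830.3, 1844 and 1535 in PTN, and 2385, 1858 and 2136 in BSN and was 1.41-fold higher (log2 change 0.49, SE 0.15, adjusted p 0.0262) in HRG than in PTN.

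Several subunits of complex IV exist as isoforms used in different tissues. The 5 kept out by the filter were Cox4i2, an isoform known from lung, Cox6a2, Cox7a1 and Cox8b, known from heart and skeletal muscle, and Cox6b2, known from testis. They lay below the 40th percentile on all 9 arrays, with signals of 42.3 to 259.1 for Cox4i2, 35.1 to 121.1 for Cox6a2, 71.5 to 678 for Cox7a1, 17.1 to 39.2 for Cox8b and 43.0 to 363.7 for Cox6b2. The widely expressed forms Cox4i1, Cox6a1, Cox6b1 and Cox8a were above it on all 9. Cox4i1 averaged 2629 ± 243 in HRG, 2109 ± 19.9 in PTN and 2256 ± 205 in BSN, and HRG against PTN had a log2 change of 0.31 (adjusted p 0.1). Cox5a averaged 1624 ± 219 in HRG, 1269.7 ± 236 in PTN and 1567 ± 66.6 in BSN and Cox5b averaged 7256 ± 466 in HRG, 5483 ± 1499 in PTN and 5396 ± 1318 in BSN, and neither of these probe sets was called. A brighter probe set names Cox5a after another symbol and was therefore not a member. It averaged 26476 in HRG, 20176 in PTN and 22051 in BSN. On the deposited scale it was called higher in HRG than in PTN (log2 change 0.39, adjusted p 0.0361) and in no other comparison. Cox7a2l, which in mouse and human helps to join complexes III and IV, was the brightest kept probe set of the group and averaged 41815 ± 2836 in HRG, 35415 ± 1867 in PTN and 36473 ± 4120.0 in BSN. It was called in no comparison.

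**Figure D2:**
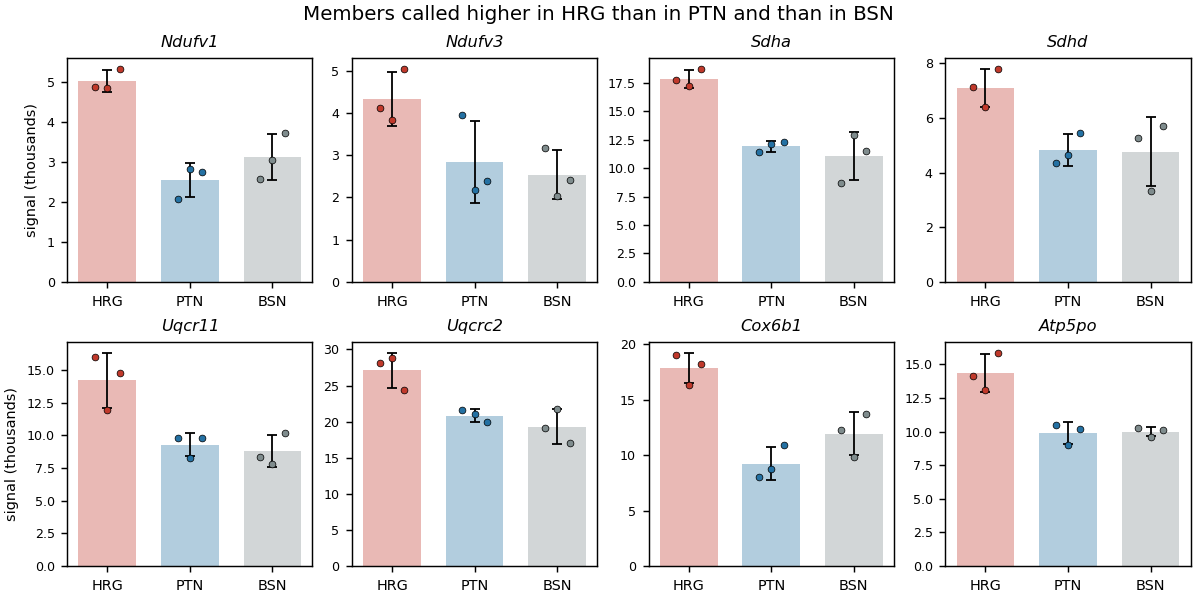
Signal, in units of 1000, for the 8 members called higher in HRG than in both other media, with a panel for each gene, bars for the mean of 3 arrays, error bars for the SD and points for arrays. All HRG points lie above those of the other media except for Ndufv3, where PTN replicate 1 lies among them.

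Complex V, the ATP synthase, held members that differed between media in opposite directions. Of 15 kept probe sets, 1 was higher in HRG than in BSN, 4 were higher and 1 lower in HRG than in PTN, and 2 were higher and 2 lower in PTN than in BSN. The shares higher in HRG were 6.67% against BSN, where 6.92% of all kept probe sets were, and 26.7% against PTN, where 14.1% were, and 2 of the 4 passed after median centring. In PTN relative to BSN 13.3% were higher and 13.3% lower, against 9.15% and 13.4%. The median log2 change was 0.15 in HRG relative to BSN. In HRG relative to PTN it was 0.07 as deposited and -0.04 after median centring, and in PTN relative to BSN -0.02 and 0.20. In the catalytic head, Atp5f1b, the beta subunit that carries the catalytic sites, had 49006, 51767 and 56431 in HRG, 67234, 53397 and 74315 in PTN, and 33866, 48106 and 41002 in BSN. The PTN arrays lay above those of BSN. PTN was 1.59-fold higher (log2 change 0.67, SE 0.15, adjusted p 0.00736) than BSN, while HRG against PTN had a log2 change of -0.30 (adjusted p 0.161). The alpha subunit Atp5f1a had 11126, 11142 and 12716 in HRG, 14368, 13570.1 and 16819 in PTN, and 9291, 14212 and 9163 in BSN, in which BSN replicate 2 lay among the PTN arrays. PTN against BSN had a log2 change of 0.48 that did not pass (adjusted p 0.06), and passed after median centring (adjusted p 0.0274).

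The small subunit of the central stalk, Atp5f1e or epsilon, differed in the opposite direction to the beta subunit. It had 38512, 30900.1 and 35252 in HRG, 14617, 21386 and 16255 in PTN, and 33331, 29413 and 36455 in BSN. The PTN arrays lay below all others, and HRG and BSN overlapped. HRG was 2.02-fold higher (log2 change 1.01, SE 0.15, adjusted p 0.000359) than PTN, and PTN was 1.92-fold lower (log2 change -0.94, SE 0.15, adjusted p 0.00118) than BSN. The log2 change of HRG against BSN was 0.08 (adjusted p 0.798). The other stalk subunits, gamma and delta, were called in no comparison: Atp5f1c averaged 44509 ± 2224 in HRG, 38195 ± 3133 in PTN and 39772 ± 4046 in BSN and Atp5f1d averaged 5638 ± 475 in HRG, 5017 ± 267 in PTN and 5052 ± 516 in BSN.

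The peripheral stalk, which holds the head still against the rotor, also split. Atp5po, the protein that confers sensitivity to oligomycin and caps the stalk, had 14156, 13076 and 15869 in HRG, 10527, 8975 and 10201 in PTN, and 10303, 9603 and 10086 in BSN. HRG arrays lay above all others, and PTN and BSN overlapped. HRG was 1.45-fold higher (log2 change 0.54, SE 0.12, adjusted p 0.00682) than PTN and 1.43-fold higher (log2 change 0.52, SE 0.12, adjusted p 0.0123) than BSN. Atp5pf, coupling factor F6, had 9489, 8811 and 10066 in HRG, 15849.6, 11602 and 11979 in PTN, and 7850.2, 6689.8 and 8831 in BSN, with the PTN arrays above all others. HRG was 1.38-fold lower (log2 change -0.46, SE 0.15, adjusted p 0.0417) than PTN, the only member called lower in HRG in either comparison, and PTN was 1.68-fold higher (log2 change 0.75, SE 0.15, adjusted p 0.00459) than BSN. The stalk subunits Atp5pb and Atp5pd averaged 14763 ± 2037 in HRG, 14609 ± 968 in PTN and 14025 ± 1120.1 in BSN and 5195 ± 547 in HRG, 6202 ± 913 in PTN and 4677 ± 501 in BSN and were not called, though Atp5pd passed as higher in PTN than in BSN after median centring (adjusted p 0.0118).

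In the membrane part, Atp5mc3, 1 of the genes for the c subunit of the rotor ring, had 65490.1, 55980.4 and 68566 in HRG, 47665, 40099.6 and 51530.5 in PTN, and 58447, 54143 and 59329 in BSN. HRG lay above PTN and overlapped with BSN. It was 1.37-fold higher (log2 change 0.45, SE 0.12, adjusted p 0.0148) in HRG than in PTN. Atp5mpl had 8113, 5614 and 5797 in HRG, 4389, 3970.5 and 3959 in PTN, and 5081, 3982 and 7444 in BSN, with the same overlap, and was 1.56-fold higher (log2 change 0.64, SE 0.21, adjusted p 0.0394) in HRG than in PTN. Subunit e, Atp5me, gave different calls on its probe sets. The first read 598, 892 and 498 in HRG, 293, 617 and 328 in PTN, and 1149, 1154 and 558 in BSN, and was called lower in PTN than in BSN (adjusted p 0.0319) with BSN replicate 3 among the PTN arrays. No fold is given because the PTN mean lay below the filter level. The other read 5851, 5200.1 and 5520.2 in HRG, 7338, 4712 and 4817 in PTN, and 6397, 5034 and 7194 in BSN with a log2 change of -0.16 (adjusted p 0.566), which was 0.05 after median centring. Atp5mg was below the filter, at 75.6 to 724.8.

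**Figure D3:**
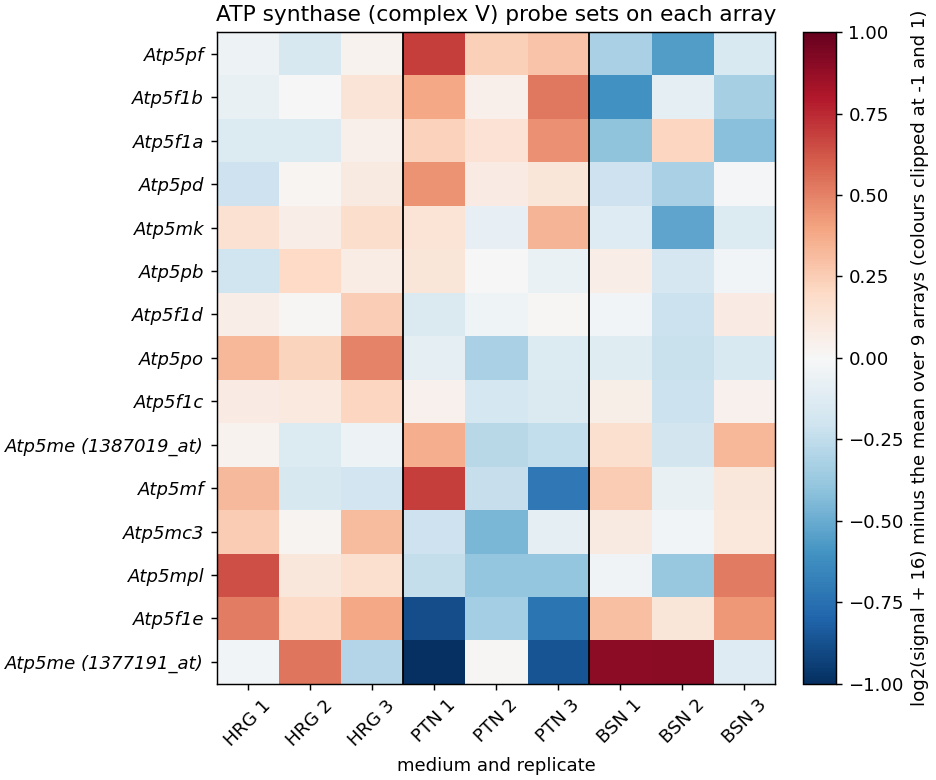
Each kept ATP synthase probe set on each of the 9 arrays, as log2 signal minus its mean over the arrays, with the arrays grouped as HRG, PTN and BSN. Atp5f1b and Atp5pf are highest in PTN, Atp5f1e is lowest there, and Atp5po is highest in HRG.

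**Figure D4:**
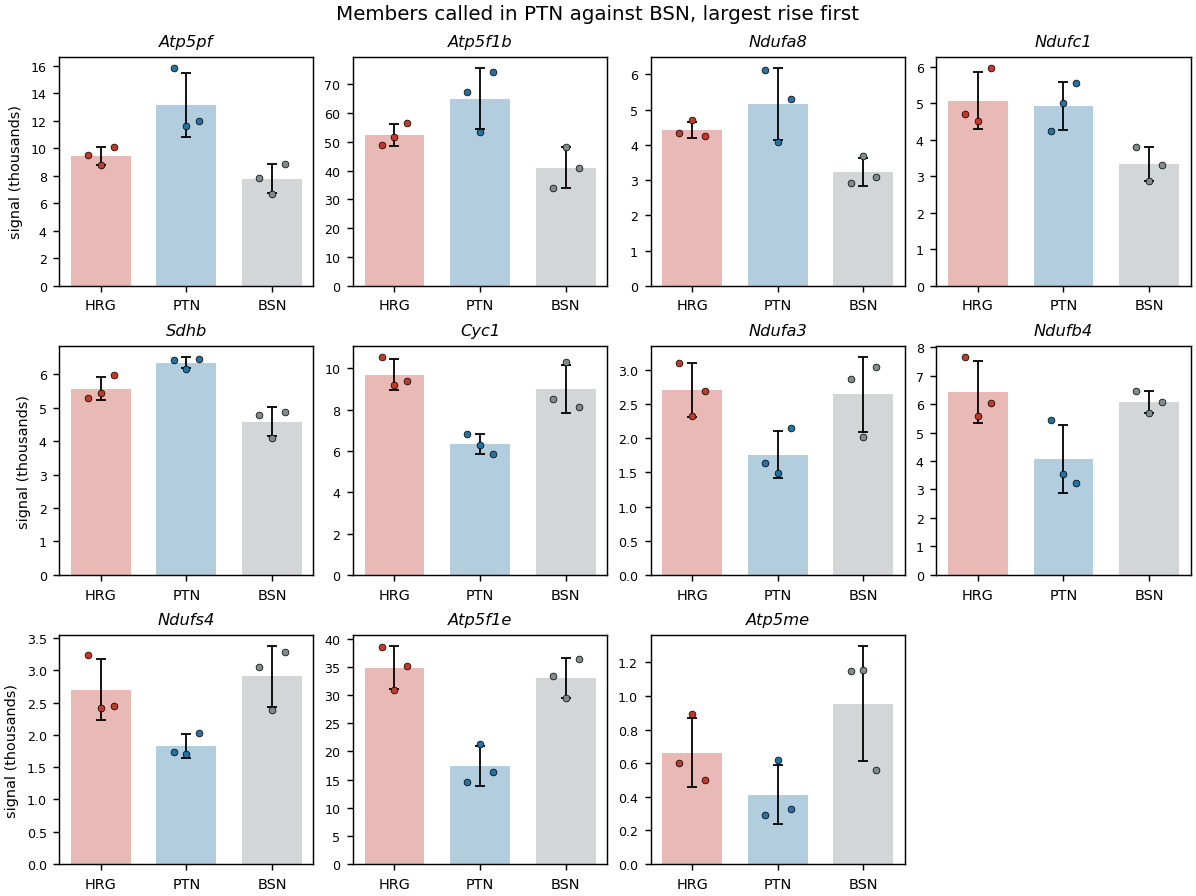
Signal, in units of 1000, of the members called for PTN against BSN, with bars for the mean of 3 arrays, error bars for the SD and points for arrays in HRG, PTN and BSN. Ndufc1 is lowest in BSN, Ndufa8, Sdhb, Atp5f1b and Atp5pf are highest in PTN, and Ndufs4, Ndufb4, Ndufa3, Cyc1, Atp5f1e and Atp5me are lowest in PTN.

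The 8 kept members that are not subunits were called in no comparison by limma's adjusted p, with 1 higher in HRG than in BSN at an unadjusted p under 0.05 and none in the other comparisons. Their median log2 change was 0.02 in HRG relative to BSN, 0.05 in HRG relative to PTN, which was -0.06 after median centring, and 0.02 in PTN relative to BSN as deposited. The assembly factors Ndufaf4 and Ndufaf5 averaged 7602 ± 711 in HRG, 6841 ± 1053 in PTN and 5748 ± 643 in BSN and 5267 ± 104 in HRG, 5290.3 ± 749 in PTN and 4542 ± 72.8 in BSN. Atp5if1, the protein that blocks the ATP synthase when it runs backwards, averaged 3475 ± 1016 in HRG, 4651 ± 997 in PTN and 3808 ± 419 in BSN on its brightest probe set. The replicates in HRG ranged from 2323 to 4243 there, wider than the difference between any 2 of the 3 means.

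Promoter sequences are shown for 4 genes that carry the contrast within these results: Atp5po, Uqcrc2 and Cox6b1, which were higher in HRG than in both other media, and Atp5pf, which was highest in PTN. They were read from RefSeq's promoters on GRCr8, which held 76 of the 85 member genes, as the 180 bases before the annotated start. For comparison, 3 short motifs known from promoters of respiratory genes were searched on both strands of the 300-base windows that run from 250 bases before the start to 50 after it: the nuclear respiratory factor 1 core GCATGCG, which nearly reads the same on both strands so that its matches overlap, the ETS core CCGGAAG, and the YY1 core GATGGCG. Capitals mark their matches.
Atp5po, chr11:44657484-44657663, minus strand: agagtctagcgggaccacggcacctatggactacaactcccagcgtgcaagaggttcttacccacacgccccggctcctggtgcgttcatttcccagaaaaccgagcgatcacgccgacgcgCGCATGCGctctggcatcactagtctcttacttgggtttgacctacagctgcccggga
Uqcrc2, chr1:184599060-184599239, plus strand: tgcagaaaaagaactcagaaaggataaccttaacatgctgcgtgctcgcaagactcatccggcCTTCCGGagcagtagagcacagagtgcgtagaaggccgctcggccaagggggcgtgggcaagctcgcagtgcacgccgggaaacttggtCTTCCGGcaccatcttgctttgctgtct
Cox6b1, chr1:95009853-95010032, minus strand: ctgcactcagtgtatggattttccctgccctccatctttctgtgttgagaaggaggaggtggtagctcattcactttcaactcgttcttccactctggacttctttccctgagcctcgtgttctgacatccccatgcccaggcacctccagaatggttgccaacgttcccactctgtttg
Atp5pf, chr11:37375102-37375281, minus strand: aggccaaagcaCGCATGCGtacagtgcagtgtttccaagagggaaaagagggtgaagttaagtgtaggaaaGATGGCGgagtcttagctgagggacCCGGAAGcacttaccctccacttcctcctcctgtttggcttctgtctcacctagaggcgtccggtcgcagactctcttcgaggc
Within these windows Atp5po held the nuclear respiratory factor core close to its start, Uqcrc2 held the ETS core at 2 places on the opposite strand, Atp5pf held all 3 motifs, and Cox6b1 held none.

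Over the 76 member genes, 11 held the nuclear respiratory factor core, or 14.5%, against 6.39% of the 6276 genes with a kept probe set and 3.54% of all 27457 promoters. The ETS core was found in 27.6% of the member genes, against 19.2% and 9.22%, and the YY1 core in 18.4%, against 8.33% and 4.26%. At least 1 of the 3 was present in 36 member genes, or 47.4%, against 29.8% and 15.3%. For HRG against BSN, 3 of 36 kept probe sets whose promoter held a motif were called higher, with a median log2 change of 0.22, and 6 of 35 whose promoter held none, with a median of 0.17. For HRG against PTN these were 7 of 36, with a median of 0.21, and 10 of 35, with a median of 0.28. Of all kept probe sets, 6.92% were higher in HRG than in BSN and 14.1% higher in HRG than in PTN. With a motif 1 of the 36 was lower in HRG than in PTN. For PTN against BSN 2 of the 36 were higher and 2 lower, and 2 of the 35 were higher and 3 lower. All kept probe sets had 9.15% higher and 13.4% lower there. A match is a run of letters and was not tested as a binding site.

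The array held 2 named probe sets for transcripts of the mitochondrial genome, both for complex IV. COX2 had 29172, 31831 and 31394 in HRG, 24519, 23961 and 18789 in PTN, and 25706, 13614 and 23986 in BSN, and HRG against BSN had a log2 change of 0.60 that did not pass (adjusted p 0.0663) and passed after median centring (adjusted p 0.0347). COX1 averaged 71199 ± 9422 in HRG, 70247 ± 16686 in PTN and 75538 ± 8376 in BSN, with log2 changes of -0.09 for HRG against BSN and 0.04 for HRG against PTN, neither of which passed.

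Genes around the chain were counted from lists chosen with the members, and the effect of omitting single arrays on their calls was not computed. Their counts are to be read against the shares of all kept probe sets, which were 6.92% higher and 8.86% lower for HRG against BSN, 14.1% and 11.7% for HRG against PTN, and 9.15% and 13.4% for PTN against BSN. Their counts after median centring were computed after the data were seen. Of 13 probe sets of the tricarboxylic acid cycle, which supplies NADH and succinate, 2 were higher in HRG than in BSN and 3 were higher in HRG than in PTN, or 15.4% and 23.1%, and none was lower in either by limma's adjusted p or at an unadjusted p under 0.05. In PTN relative to BSN 1 was higher and 1 lower, and 3 and 0 after median centring. Suclg2, a subunit of succinyl-CoA synthetase, had 10248, 12856 and 12649.7 in HRG, 7270.4, 8171 and 7034 in PTN, and 6303, 5927 and 6715 in BSN, with HRG above all others, and was 1.88-fold higher (log2 change 0.91, SE 0.13, adjusted p 0.000494) in HRG than in BSN and 1.58-fold higher (log2 change 0.66, SE 0.13, adjusted p 0.00282) than in PTN. Idh3b, a subunit of isocitrate dehydrogenase, was 1.73-fold higher (log2 change 0.79, SE 0.13, adjusted p 0.000889) in HRG than in PTN. Dld, a subunit shared by the 2-oxoacid dehydrogenases, was low in BSN, with 8477, 13571 and 15228 in HRG, 8172, 14470.4 and 13136 in PTN, and 6926, 6901 and 4978 in BSN, and was 1.94-fold higher (log2 change 0.96, SE 0.25, adjusted p 0.0183) in HRG and 1.87-fold higher (log2 change 0.90, SE 0.25, adjusted p 0.0203) in PTN than in BSN.

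Pyruvate dehydrogenase and its control genes, 13 probe sets, had 3 higher in HRG than in BSN, or 23.1%, 1 higher and 1 lower in HRG than in PTN, or 7.69% each, and 2 higher in PTN than in BSN. Pdha1, the alpha subunit of its first enzyme, had 14255, 15618 and 17025 in HRG, 10889.8, 12945 and 12844 in PTN, and 9258, 9104 and 8504 in BSN on 1 of its 2 probe sets and was 1.74-fold higher (log2 change 0.80, SE 0.12, adjusted p 0.000777) in HRG than in BSN and 1.36-fold higher (log2 change 0.44, SE 0.12, adjusted p 0.0226) in PTN than in BSN. Pdhb, the beta subunit, was 1.57-fold higher (log2 change 0.65, SE 0.19, adjusted p 0.0351) in HRG than in BSN and 1.58-fold higher (log2 change 0.66, SE 0.19, adjusted p 0.0216, or 0.101 after median centring) in HRG than in PTN. The third call for HRG against BSN was Pdk2, 1 of the kinases that switch the enzyme off, named after its values were seen to complete the count. It had 1104, 1202 and 1148 in HRG, 1169.7, 654 and 747 in PTN, and 628, 627 and 793 in BSN, with HRG above BSN and PTN replicate 1 among the HRG arrays. Its log2 change was 0.75 for HRG against BSN (SE 0.22, adjusted p 0.0372) and 0.46 for HRG against PTN (adjusted p 0.147), and no fold is given because the BSN mean lay below the filter level. Pdk1, a kinase with the same action, was high in PTN, with 729, 951 and 847 in HRG, 2546, 1667 and 1632 in PTN, and 827, 1053 and 799 in BSN on 1 of its 2 probe sets. HRG was 2.25-fold lower (log2 change -1.17, SE 0.20, adjusted p 0.00111) than PTN, and PTN was 2.13-fold higher (log2 change 1.09, SE 0.20, adjusted p 0.00274) than BSN. The second probe sets of Pdha1 and Pdk1 were called in no comparison on the deposited scale. After median centring that of Pdk1 was called higher in PTN than in BSN (log2 change 0.51, adjusted p 0.0208). A second probe set of Pdk2 was below the filter on all 9 arrays, with 43.3 to 81.6. For the whole list median centring gave 3 higher in HRG than in BSN, 0 higher and 1 lower in HRG than in PTN, and 3 higher in PTN than in BSN.

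Of 33 probe sets for assembly factors of the complexes, which include the 5 Ndufaf members, 4 were higher and 1 lower in HRG than in BSN, 6 were higher in HRG than in PTN, and 1 was higher and 2 lower in PTN than in BSN. The shares higher in HRG were 12.1% and 18.2%. After median centring the counts were 5 higher and 1 lower, 4 higher and 1 lower, and 4 higher and 1 lower. Sdhaf2, which attaches FAD to Sdha, had 9027, 8195 and 7928 in HRG, 4208, 3932 and 3977 in PTN, and 4393, 5552 and 5935 in BSN on 1 of its 2 probe sets. HRG lay above all others, as for Sdha, and was 2.07-fold higher (log2 change 1.05, SE 0.14, adjusted p 0.000144) than PTN and 1.59-fold higher (log2 change 0.67, SE 0.14, adjusted p 0.00527) than BSN. Its second probe set was called in no comparison. Coa4, known to act in the assembly of complex IV, was 1.81-fold higher (log2 change 0.86, SE 0.15, adjusted p 0.00107) in HRG than in PTN and 1.57-fold lower (log2 change -0.65, SE 0.15, adjusted p 0.00807) in PTN than in BSN. The 1 called lower in HRG than in BSN was Cox19, with all HRG arrays below all others. HRG was 1.65-fold lower (log2 change -0.73, SE 0.19, adjusted p 0.0211) than BSN. Against PTN its log2 change was -0.52 (adjusted p 0.0623), and it passed after median centring (adjusted p 0.0118).

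Among 12 probe sets for the control of mitochondrial gene expression, 1 was higher and 1 lower in HRG than in BSN, 3 were higher and 2 lower in HRG than in PTN, and 1 was higher and 2 lower in PTN than in BSN. Gabpb1, a subunit of the ETS-family GA-binding protein also called nuclear respiratory factor 2 and named after its values were seen, had 3032, 2468 and 2734 in HRG, 4423, 3405 and 3752 in PTN, and 4763, 4005 and 4725 in BSN. All HRG arrays lay below all others, and HRG was 1.64-fold lower (log2 change -0.71, SE 0.15, adjusted p 0.00499) than BSN and 1.4-fold lower (log2 change -0.49, SE 0.15, adjusted p 0.0271) than PTN. Ppargc1a, a coactivator of mitochondrial biogenesis, had 2641, 2165 and 2328 in HRG, 1137, 1111 and 1386 in PTN, and 2408, 2693 and 1948 in BSN, lowest in PTN. HRG was 1.95-fold higher (log2 change 0.97, SE 0.16, adjusted p 0.000764) than PTN, and PTN was 1.92-fold lower (log2 change -0.94, SE 0.16, adjusted p 0.00152) than BSN. Tfam, which packs and transcribes mitochondrial DNA, was the other way round: PTN was 1.51-fold higher (log2 change 0.59, SE 0.18, adjusted p 0.0349) than BSN, and HRG was 1.52-fold lower (log2 change -0.60, SE 0.18, adjusted p 0.0294) than PTN with overlapping arrays. Myc, a transcription factor with mitochondrial genes among its targets, was 2.73-fold higher (log2 change 1.45, SE 0.28, adjusted p 0.00305) in HRG than in BSN and 3.12-fold higher (log2 change 1.64, SE 0.28, adjusted p 0.000858) in HRG than in PTN. Tufm, an elongation factor of mitochondrial translation that was named likewise, had log2 changes of 1.09 for HRG against PTN (adjusted p 4.65e-05), -0.76 for PTN against BSN (adjusted p 0.00131) and 0.33 for HRG against BSN (adjusted p 0.101).

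Of 75 probe sets for mitochondrial ribosomal proteins, 7 were higher in HRG than in BSN, 11 were higher in HRG than in PTN, and 6 were higher and 3 lower in PTN than in BSN. The shares higher in HRG, 9.33% and 14.7%, stood beside 6.92% and 14.1% of all kept probe sets, and those in PTN relative to BSN, 8% higher and 4% lower, were below 9.15% and 13.4%. Their median log2 change was 0.06 in HRG relative to BSN, 0.13 in HRG relative to PTN and -0.06 in PTN relative to BSN as deposited, the last of which was 0.15 after median centring. None was called lower in HRG by limma's adjusted p. At an unadjusted p under 0.05, 1 was lower in HRG than in PTN and 0 were lower in HRG than in BSN. After median centring 11 were higher in HRG than in BSN, 5 were higher and 1 lower in HRG than in PTN, and 10 were higher and 0 lower in PTN than in BSN.

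Carriers, channels and import proteins, 29 probe sets, had 1 higher and 1 lower in HRG than in BSN, 2 higher in HRG than in PTN, and 2 each way for PTN against BSN. The shares higher in HRG, 3.45% and 6.90%, were below those of all kept probe sets, and after median centring the counts for HRG against PTN were 0 higher and 1 lower. Uncoupling proteins and matrix antioxidants, 11 probe sets, had 2 higher in HRG than in BSN, 1 higher in HRG than in PTN and 1 higher in PTN than in BSN. Prdx3, a peroxidase of the matrix, was 1.99-fold higher (log2 change 1.00, SE 0.16, adjusted p 0.000533) in HRG than in PTN and 1.6-fold higher (log2 change 0.68, SE 0.16, adjusted p 0.0102) in HRG than in BSN.

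Striated muscle is another tissue rich in the respiratory chain. Of its 11 marker probe sets 2 were kept, and the summed signal of the 11 was 4288 to 4840 in HRG, 2917 to 3656 in PTN and 3760 to 4468 in BSN. Tnnc1, the slow and cardiac troponin C, was called higher in HRG than in PTN and had 1683, 1702 and 1393 in HRG, 416, 762 and 864 in PTN, and 791, 1093 and 974 in BSN. The part of these transcripts in the results was not tested. The summed signal of stromal markers was 3606 to 4892 in HRG, 4861 to 5079 in PTN and 5005 to 5258 in BSN, with 4 of 10 probe sets kept. The 6 endothelial probe sets summed to 1373 to 1873 in HRG, 1451 to 2152.5 in PTN and 1902 to 2270 in BSN. The 7 for blood and macrophages summed to 1846 to 2004, 1594 to 2308.5 and 2531 to 2801, in the same order. In each list 1 was kept. By limma's adjusted p, Kdr of endothelium was lower in HRG than in BSN (log2 change -1.14) and PTN (-1.27). Stromal Vim was lower in HRG than in BSN (-1.08), but not after median centring (adjusted p 0.0611). Their part in the results was not tested.

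Many of the members' calls depended on single arrays. Among the 10 members higher in HRG than in BSN, the following no longer passed. Without HRG replicate 3 the calls of Ndufb5, Ndufc1, Ndufv1, Ndufv3, Sdhd, Cox6b1 and Atp5po were lost, with adjusted p of 0.0538 to 0.164. Without BSN replicate 2 those of Ndufb5, Ndufc1, Ndufv3, Sdhd, Cox6b1 and Atp5po were lost, with adjusted p of 0.0513 to 0.173. Without HRG replicate 1 the lost calls were Ndufb5, Ndufv3, Sdhd, Uqcrc2 and Cox6b1 (0.0556 to 0.104), and without HRG replicate 2 Ndufb5, Ndufv3, Sdhd and Uqcrc2 (0.0503 to 0.0763). Without BSN replicate 1 they were Ndufv1, Sdhd and Uqcrc2 (0.0548 to 0.0584), and without BSN replicate 3 Ndufc1, Ndufv3 and Uqcrc2 (0.0681 to 0.0962). Omitting PTN replicate 2 or 3, which changes only the shared error, lost Sdhd at 0.0559 and 0.0509.

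Among the 20 members called for HRG against PTN, the losses were as follows. Without HRG replicate 1 the calls of Ndufa3, Ndufb4, Ndufs4, Ndufv3, Sdhd, Uqcrc2, Uqcrh, Cox7b, Cox8a, Atp5mc3, Atp5mpl and Atp5pf were lost (adjusted p 0.0547 to 0.166). Without HRG replicate 2 those of Ndufv3, Sdhd, Uqcrc2, Uqcrh, Cox7b and Atp5pf were lost (0.0608 to 0.135), and without HRG replicate 3 those of Ndufa3, Ndufv3, Sdhd, Uqcrh, Cox8a, Atp5mc3, Atp5mpl and Atp5pf (0.0598 to 0.169). Without PTN replicate 1 the lost calls were Ndufa3, Sdhd, Uqcrh and Atp5pf (up to 0.0936), without PTN replicate 2 Ndufa3, Ndufb4, Ndufs4, Ndufv3, Sdhd, Uqcrc2, Cox8a, Atp5mc3 and Atp5mpl (0.0610 to 0.166), and without PTN replicate 3 Ndufb4, Ndufv3, Uqcrc2, Cox7b, Cox8a, Atp5mpl and Atp5pf (0.0527 to 0.149). Through the shared error, omission of BSN replicate 1 lost Sdhd, Uqcrc2, Uqcrh, Cox8a, Atp5mpl and Atp5pf (0.0542 to 0.0624), and omission of BSN replicate 2 or 3 lost Ndufv3 and Uqcrh (0.0525 to 0.0659).

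Among the 11 called for PTN against BSN, they were these. Without BSN replicate 1 the calls of Ndufa3, Ndufb4, Ndufs4 and Atp5me were lost (adjusted p 0.0525 to 0.141), without BSN replicate 2 Ndufb4, Ndufc1, Sdhb, Cyc1 and Atp5me (0.0643 to 0.115), and without BSN replicate 3 Ndufa3, Ndufb4, Ndufc1 and Ndufs4 (0.0657 to 0.172). Without PTN replicate 1 Ndufa3 and Atp5me were lost (0.0599 to 0.0671), without PTN replicate 2 Ndufa3, Ndufb4 and Ndufc1 (0.0634 to 0.146), and without PTN replicate 3 Ndufb4, Ndufc1, Sdhb, Cyc1 and Atp5me (0.0534 to 0.138). Omission of HRG replicate 2 or 3 lost Ndufa3 at 0.0539 and 0.0633.

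Other settings with all 9 arrays lost calls too, beside those named for median centring. For HRG against BSN, quantile normalization lost Sdhd (0.0675), and no filter or no intensity trend lost Ndufb5, Ndufv3 and Sdhd (0.0502 to 0.0763). For HRG against PTN, quantile normalization lost Ndufa3, Ndufs4, Ndufv3, Sdhd, Cox7b, Atp5mpl and Atp5pf (0.0536 to 0.0930). No filter lost Ndufa3, Ndufv3, Sdhd, Uqcrc2, Uqcrh, Cox8a, Atp5mc3, Atp5mpl and Atp5pf (0.0544 to 0.0908), and no intensity trend lost Ndufv3, Sdhd, Uqcrc2, Uqcrh, Cox8a, Atp5mpl and Atp5pf (0.0574 to 0.0731). A fit of only the 2 groups compared lost Ndufv3, Uqcrc2, Uqcrh and Atp5pf (0.0567 to 0.0812). For PTN against BSN, quantile normalization lost Ndufa3 and Atp5me (0.111 to 0.124), no filter lost Ndufa3, Ndufb4 and Atp5me (0.0574 to 0.0779), and no intensity trend or only the 2 groups compared lost Ndufa3 and Ndufb4 (0.0519 to 0.0724).

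**Figure D5:**
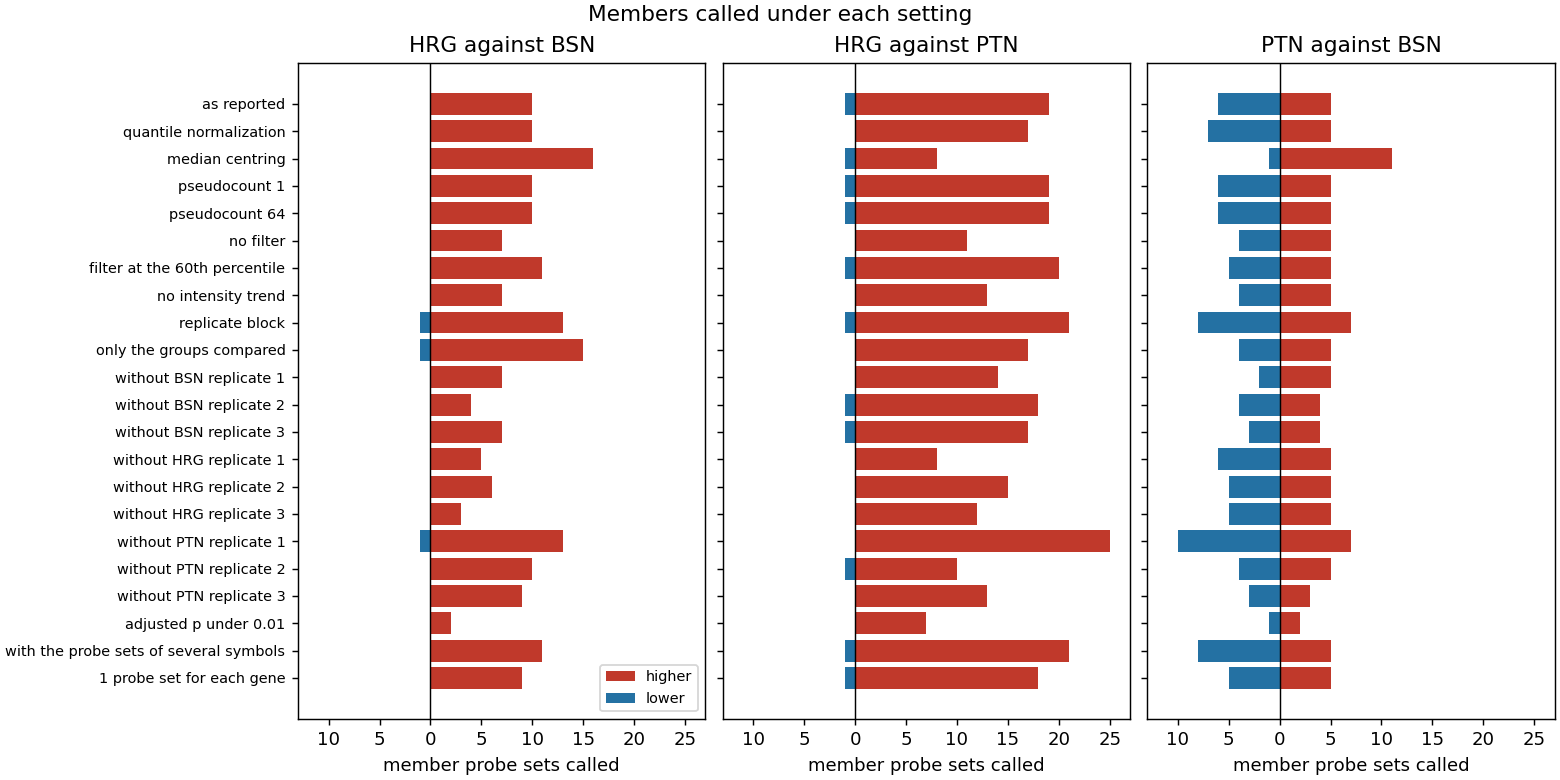
Number of kept members called higher, to the right, and lower, to the left, in each comparison under the main setting and each alternative. Counts for HRG against PTN run from 7 to 25 higher, and those for PTN against BSN turn from 5 higher and 6 lower to 11 higher and 1 lower with median centring.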

How the data were processed

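Total RNA from cultured ureteric buds was extracted with a PicoPure kit, amplified by 2 rounds of in vitro transcription and hybridised to Affymetrix RAE230A arrays, per the labels. The deposited values are GCOS signals, that is intensity on a linear scale, with GCOS named in the submitters' processing notes with no settings given in the sources used here. In all, the table held 15923 probe sets, 57 of them controls, and all value columns were matched to samples. For names, the probe annotation of the platform listed 1 symbol for 12783 probe sets, several for 312 and none for 2771, and an update through Entrez IDs changed 0 of them. The symbol groups of respiratory complexes, the neighbouring gene lists and the naming rule were chosen with earlier results of these data known; Atp5if1 and Cox6c-ps1 were set apart from the subunits after the files were seen.

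Signals were analysed as log2(signal + 16) with limma 3.58.1 under R 4.3.3, using lmFit, contrasts.fit and a trended eBayes, all 9 arrays in one fit with medium as the only factor and 6 residual degrees of freedom, 12.7 after moderation. Adjusted p is Benjamini-Hochberg over the 10106 kept probe sets, with a threshold of 0.05. The design text calls the samples of a medium biological replicates, and with 3 arrays a group their number limits the precision. Named were, per comparison, up to 8 members with the largest rises and 8 with the largest falls among those called, per complex the brightest probe set and that with the widest range of group means, and a set of isoforms and core subunits. Array controls were compared with exact permutation tests. The fit was tested on simulated data. To see whether replicate numbers pair the arrays, deviations from the group mean were correlated between arrays of the same number. In HRG and PTN the 3 values were 0.27, 0.33 and 0.12, all over 0.1, the level taken to mark a pairing. The reported tests did not use that pairing, and it entered only through the replicate block among the alternatives. The labels do not state this pairing. For HRG and BSN they were -0.06, 0.13 and 0.09, and for PTN and BSN -0.10, -0.01 and -0.06. Alternatives changed the scaling, the pseudocount, the filter, the intensity trend, the block, the groups in the fit, the threshold and the arrays included. Figures were drawn with matplotlib 3.10.9.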

Additional observations from a re-analysis of the deposited data

How the results depend on the processing

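No called member changed direction under the 18 alternatives at the same threshold, while the numbers of calls moved. For HRG against BSN, 10 members were higher as reported, 16 with median centring and 2 at an adjusted p under 0.01. Against BSN no member was lower in HRG as reported, and 1 was with a replicate block or with only the groups compared in the fit. For HRG against PTN, 19 were higher as reported, 8 with median centring, 11 with no filter and 7 at an adjusted p under 0.01. Against PTN 1 member, Atp5pf, was lower as reported, and 0 were with quantile normalization, no filter, no intensity trend, only the groups compared or an adjusted p under 0.01. For PTN against BSN, 5 higher and 6 lower became 11 and 1 with median centring and 2 and 1 at an adjusted p under 0.01. With 1 array left out, the ranges were 3 to 13 higher and 0 to 1 lower for HRG against BSN, 8 to 25 and 0 to 1 for HRG against PTN, and 3 to 7 and 2 to 10 for PTN against BSN. The replicate block gave 13, 21 and 7 higher and 1, 1 and 8 lower for HRG against BSN, HRG against PTN and PTN against BSN, and changed none of the reported calls. Among the medians of the members and complexes and the log2 changes of the called genes, signs changed for 7 of the medians and for 2 probe sets that were not called. With median centring the PTN against BSN medians were 0.13 for all members and 0.12, 0.16, 0.11 and 0.20 for complexes I, III, IV and V, against -0.08, -0.10, -0.05, -0.10 and -0.02 as reported, and the HRG against PTN median of complex V was -0.04, against 0.07. Without PTN replicate 2 the medians of complex V for HRG against PTN and of complex III for PTN against BSN changed sign, to just below 0 and to 0.08, and without BSN replicate 1 that of complex V for PTN against BSN, to 0.005. For HRG against PTN the median of complex II and the second probe set of Sdhd, which are 1 value, ran from -0.017 without HRG replicate 3 to 0.286 without HRG replicate 2, and for PTN against BSN the second probe set of Atp5me was 0.0546 with median centring. Pseudocounts of 1 and 64 and a filter at the 60th percentile lost no reported call, apart from the low probe set of Atp5me, which that filter removed. Chosen after the data were seen, adding the 6 probe sets with several symbols gave 11, 21 and 5 higher and 0, 1 and 8 lower. Probe sets that name Cycs or Cox5a after another symbol were not among these 6. A bright probe set of Cycs was called higher in PTN than in BSN (log2 change 0.54, adjusted p 0.00703), and a dimmer one was called in no comparison. The causes of these shifts were not tested, and 11 members below the filter could not be measured at this signal.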

Other observations

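The genes whose log2 signals over the 9 arrays were most like the mean of the 79 kept members, leaving the members out, were Asmtl (Pearson's r 0.968), Klf5 (0.967), Ddah1 (0.954), Tomm7 (0.953) and Dab2 (0.952). The arrays fall into 3 media, so these values describe the arrays and carry no test. Klf5, a transcription factor of epithelia, had 4132, 3044 and 3129.8 in HRG, 1465, 1205 and 1263 in PTN, and 1924, 1136 and 2214 in BSN. The HRG arrays lay above all others. HRG was 2.58-fold higher (log2 change 1.37, SE 0.22, adjusted p 0.000644) than PTN and 2-fold higher (log2 change 1.00, SE 0.22, adjusted p 0.0078) than BSN by limma. Tomm7, a small subunit of the import channel in the outer mitochondrial membrane, had 10517, 8002 and 9719.6 in HRG, 7441, 6487 and 6869.8 in PTN, and 7929.9, 6462 and 9368 in BSN and was called in no comparison.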
